A study of Mus musculus with 6 samples.

Results

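The genes described are the mouse PYHIN genes Ifi203, Ifi204, Ifi205, Ifi207, Ifi209, Ifi211, Ifi213, Mndal and Aim2, that is 8 genes of the Ifi200 cluster and their neighbour Aim2. The locus holds 5 further PYHIN genes, which are not among the members. The members were taken by gene name from the deposited count table, in which 9 of 54532 genes carry one of these names. N9 microglia are an immortalized cell line derived from mouse brain, and a single line was used. The libraries fall into 2 groups, 3 of untreated control cells and 3 of cells stimulated with LPS at 1 µg/ml for 6 h. LPS, or lipopolysaccharide, coats Gram-negative bacteria. Both groups were grown in the same RPMI medium with serum and antibiotics, and the comparison asks which transcripts differed after LPS.

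PYHIN proteins pair a pyrin domain, which binds other pyrin domains, with a HIN domain, which binds double-stranded DNA. AIM2 recognises DNA in the cytosol and assembles an inflammasome, a complex with the adaptor ASC and caspase-1 that matures interleukin-1 beta and interleukin-18 and opens gasdermin D pores. The Ifi200 genes were first known as genes induced by interferon, and several of their proteins act in the nucleus or in DNA sensing. Microglia are the resident macrophages of the brain and respond to LPS through the receptor TLR4.

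In these cells 7 of the 9 genes rose with LPS (adjusted p under 0.05, log2 fold change over 1.5), as did 2.40% of all genes tested. The rise was 4.6-fold for Ifi207, 7.9-fold for Mndal, 10.5-fold for Ifi203, 12.9-fold for Ifi211 and 17.6-fold for Ifi204. Ifi209 and Ifi205 rose from 5 counts or fewer in every control library, so that their folds are loosely fixed. Aim2 was level, at 33.8 ± 1.61 counts per 1000000 (CPM) in control and 32.4 ± 2.7 CPM in LPS libraries (SD, n = 3), and Ifi213 had no count in any library. Summed over the 9 genes, the level was 90.7 ± 8.37 CPM in control and 480 ± 18.2 CPM in LPS libraries (SD, n = 3), a ratio of 5.29. Without Aim2 the sum was 56.9 ± 7.52 CPM in control and 447 ± 20.6 CPM in LPS libraries (SD, n = 3), a ratio of 7.86.

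All 9 genes lie on chromosome 1 of GRCm38 and are protein coding. Aim2 (ENSMUSG00000037860, chr1:173350879-173466040) and Ifi209 (ENSMUSG00000043263, chr1:173630917-173647928) are on the plus strand. The other members are on the minus strand. They are Ifi213 (ENSMUSG00000073491, chr1:173566283-173599274), Ifi207 (ENSMUSG00000073490, chr1:173723427-173741747), Ifi204 (ENSMUSG00000073489, chr1:173747293-173766943) and Mndal (ENSMUSG00000090272, chr1:173849126-173942491). Ifi211 (ENSMUSG00000026536, chr1:173896345-173913046), Ifi203 (ENSMUSG00000039997, chr1:173920407-173942672) and Ifi205 (ENSMUSG00000054203, chr1:174011998-174031810) follow. The gene model of Mndal spans that of Ifi211, and its exons overlap those of Ifi203 and Gm38050 by 155 bases, or 4.27% of its exon length.

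RefSeq start site windows, 250 bases before and 50 after the start, were given for 8 of the 9 members and not for Ifi204. They were searched on both strands for the core of the interferon-stimulated response element, a pair of GAAA words with any 2 bases between them, and for TTCNNNGAA, the gamma-activated site bound by STAT dimers. A 9-base core, AAATNGAAA, was added after the sequences had been read, and it overlaps the first motif. The interferon element was found in 6 of the 8 members, Ifi203, Ifi205, Ifi207, Ifi211, Ifi213 and Mndal, and in 3.99% of all 27025 genes with a window. The 9-base core was found in 7 members and in 2.14% of those genes, and the gamma-activated site in no member and in 9.55% of those genes. Neither Aim2 nor the first of the 2 windows of Ifi203 held any of the 3 motifs, which says only that these letters are not in these windows. The stretches below show how alike the matches are from gene to gene, with the matched bases in capitals. They are from RefSeq on GRCm38.p6, in the direction of the gene, at chr1:173942508-173942537 for Ifi203, chr1:173880204-173880233 for Mndal, chr1:173741831-173741860 for Ifi207, chr1:173913064-173913093 for Ifi211, chr1:174031870-174031899 for Ifi205, chr1:173599326-173599355 for Ifi213, all minus strand, and chr1:173630771-173630799 for Ifi209, plus strand.
Ifi203: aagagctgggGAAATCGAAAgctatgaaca
Mndal: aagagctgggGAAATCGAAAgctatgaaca
Ifi207: cctagccaggGAAATCGAAAattaagaaca
Ifi211: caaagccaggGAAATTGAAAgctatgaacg
Ifi205: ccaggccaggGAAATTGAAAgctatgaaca
Ifi213: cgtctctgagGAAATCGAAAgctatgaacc
Ifi209: atctctgagtAAATCGAAAgagatgcact

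The stretches of Ifi203 and Mndal are identical over all 30 bases. In the GENCODE M21 annotation, the stretch of Mndal is in an exon of Mndal, that of Ifi203 is in an intron of Ifi203, and that of Ifi211 is in an intron of Mndal. The other stretches lie outside gene models. Ifi213, which had no count, and Ifi207, which had 508 counts or more in every library, both carry the element. A match of letters is a description, and no binding was measured.

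**Figure D1:**
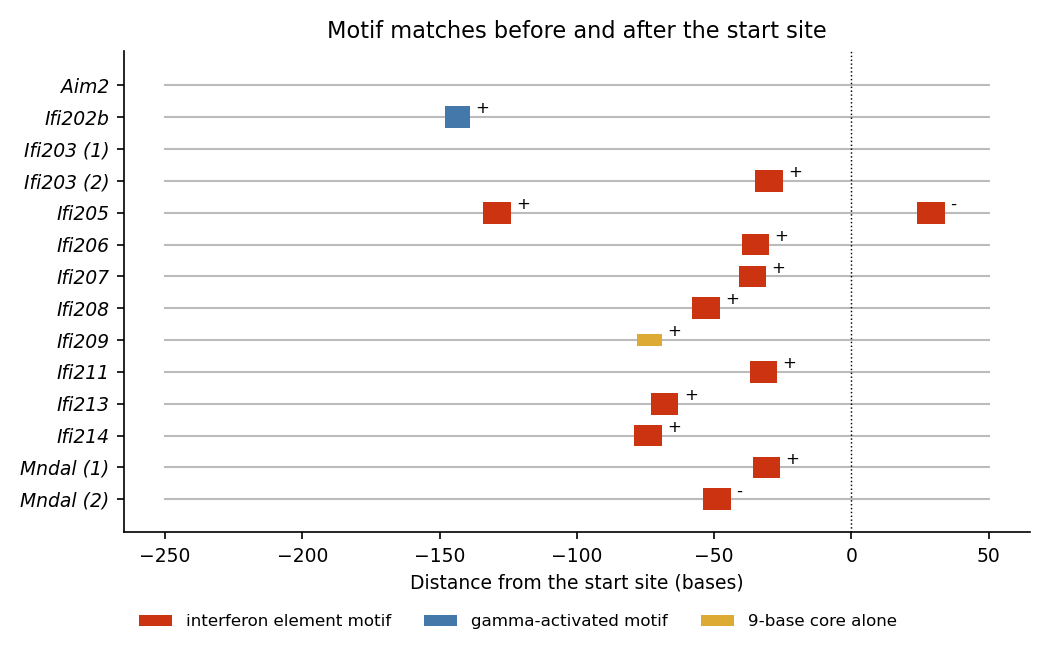
Position of motif matches in the start site windows of PYHIN genes, in bases from the start site, for the interferon element, the gamma-activated site and the 9-base core where it stands alone. Numbers in brackets tell apart 2 windows of a gene and signs give the strand, and 6 of the 8 members with a window hold the interferon element.

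Total counts lay between 16363767 and 17956772 per library. TMM factors, which scale libraries so that most genes do not differ, were 1.034 to 1.036 in control and 0.9646 to 0.9699 in LPS libraries, and CPM are on the scaled sizes. At this depth 3 counts are worth 0.161 to 0.19 CPM. The line held general macrophage transcripts such as Csf1r, Cd68, Ptprc and Trem2, and its 12 microglia and macrophage markers summed to 1531 to 1627 CPM in control and 1634 to 1690 CPM in LPS libraries. P2ry12, Fcrls and Sall1, which mark microglia in the brain, were under 1 CPM in every library, as was Aif1. Other listed microglia and macrophage markers were not that low, with Cx3cr1 at 2.01 to 4.08 CPM and Tmem119 at 9 to 10.3 CPM. Listed markers of other brain cells summed to 27.2 to 29.2 CPM in control and 21.3 to 24.9 CPM in LPS libraries for astrocytes, mostly Aldh1l1. For neurons the sums were 21.7 to 23.6 and 16.6 to 18.3 CPM, mostly Map2, and for oligodendrocytes 33.4 to 39.8 and 27.9 to 29.5 CPM, mostly Mbp. The astrocyte marker Gfap, the neuron marker Rbfox3 and the oligodendrocyte marker Mog were under 1 CPM throughout. The 3 endothelial markers summed to 0.17 to 0.467 CPM in control and 0.792 to 1.16 CPM in LPS libraries. All 3 T cell markers were at 0, and the 3 B cell markers summed to at most 0.0634 CPM. The 6 hepatocyte markers, none of them at 0 throughout, summed to 0.175 to 20.4 CPM in control and 0.061 to 0.548 CPM in LPS libraries. Of these, Alb stood at 8.79 CPM in control replicate 2 and 15.7 CPM in control replicate 3 and at most at 0.127 CPM elsewhere. With both of these libraries left out, control replicate 1 against the LPS libraries, whose spread it is then assumed to share, gave the same 7 members by edgeR. The part of the other markers in the results was not tested.

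The test was edgeR's quasi-likelihood test on the deposited counts, with p-values adjusted over the 12296 genes left by a filter on low counts. The call rule was an adjusted p under 0.05 together with a log2 fold change over 1.5 in size. By this rule 295 of the tested genes rose, or 2.40%, and 31 fell, or 0.252%. Of the members, 8 were tested, 7 rose and none fell, and Aim2 did not pass. The median log2 fold change was 3.54 over the 8 tested members and 0.00 over all tested genes. Ifi205 and Ifi209 passed the filter only through the LPS libraries, where they are high, so that their calls were close to fixed by the filter. At an adjusted p under 0.05 alone, 18.7% of the tested genes rose and 15.7% fell, and the same 7 members rose. For these 7 members the lowest LPS library exceeded the highest control library, as for 23.7% of the tested genes. Counting either direction, the groups did not overlap for 45.3% of the tested genes. Nothing in the sources states that the libraries came from separate cultures, so p-values measure only the spread between these samples. In bulk RNA a change in the share of responding cells and a change per cell cannot be told apart.

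Aim2, the DNA sensor of the family that forms an inflammasome, had 587, 621 and 596 counts in control and 473, 524 and 580 counts in LPS libraries. These are 34.3, 35.2 and 32.1 CPM in control and 30, 32 and 35.3 CPM in LPS libraries, and the groups overlap, with the highest and the lowest value both in the LPS group. The log2 fold change was -0.06 (SE 0.08), with a 95% interval from -0.23 to 0.10 and an edgeR adjusted p of 0.595. The interval leaves room for a small change in either direction and lies far from the changes of the other tested members. Of the 50-base windows of its transcripts, 99.3% occur in no other gene.

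Ifi204, which encodes the p204 protein and takes part in sensing DNA and in differentiation of myeloid cells, had 101, 94 and 104 counts in control and 1671, 1663 and 1465 counts in LPS libraries. All LPS libraries were far above all control libraries, and the control libraries lay close together. The level was 5.61 ± 0.284 CPM in control and 98.8 ± 8.65 CPM in LPS libraries (SD, n = 3). The rise, 4.14 as a log2 fold change (SE 0.09), passed with an edgeR adjusted p of 3.3e-14. Among the tested genes it ranked 49 by log2 fold change.

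Per length, with reads as counted, Ifi207 was the most abundant of the 8 listed genes other than Aim2 in both groups. It had the smallest rise among those called. It had 508, 667 and 586 counts in control and 2257, 2571 and 2557 counts in LPS libraries, with no overlap. Its level was 33 ± 4.27 CPM in control and 152 ± 7.63 CPM in LPS libraries (SD, n = 3). The rise, 2.20 as a log2 fold change (SE 0.07), passed with an edgeR adjusted p of 5.3e-12.

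Ifi203 had 185, 281 and 206 counts in control and 2262, 2165 and 1977 counts in LPS libraries. The control libraries were uneven, with replicate 2 the highest, but all lay well under the LPS libraries. The level was 12.6 ± 2.88 CPM in control and 132 ± 11.5 CPM in LPS libraries (SD, n = 3). The rise, 3.39 as a log2 fold change (SE 0.11), passed with an edgeR adjusted p of 3.5e-12. Mndal, named for its likeness to the human myeloid nuclear differentiation antigen, had 44, 64 and 77 counts in control and 399, 506 and 427 counts in LPS libraries. It too rose without overlap, between means of 3.45 ± 0.802 CPM and 27.4 ± 3.03 CPM (SD, n = 3). Its log2 fold change was 2.98 (SE 0.15) with an edgeR adjusted p of 5.5e-10. The ratio of Ifi203 to Mndal counts was 4.2, 4.39 and 2.68 in control and 5.67, 4.28 and 4.63 in LPS libraries. These ratios overlap between the groups for this pair of overlapping neighbours.

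Ifi211 had 20, 35 and 53 counts in control and 450, 449 and 373 counts in LPS libraries. Its control libraries spread more than those of Ifi204 or Ifi207 relative to their mean, yet the groups are far apart. The level was 2 ± 0.842 CPM in control and 26.2 ± 3.08 CPM in LPS libraries (SD, n = 3). The rise, 3.69 as a log2 fold change (SE 0.19), passed with an edgeR adjusted p of 9.8e-10. Only 27.2% of the 50-base windows of its transcripts are unique, while 44.7% also occur in Ifi205 and 30.1% in Ifi204. How reads were shared among these genes is not given in the sources used here, so the value of Ifi211 by itself is uncertain. With control replicate 1, its lowest, as the only control, the log2 fold change was 4.48.

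Ifi209 and Ifi205 were barely detected without LPS. Ifi209 had 2, 5 and 4 counts in control and 179, 167 and 136 counts in LPS libraries, or 0.205 ± 0.0838 and 9.94 ± 1.55 CPM (SD, n = 3). Its log2 fold change was 5.54 (SE 0.29, edgeR adjusted p = 9.1e-10). With control replicate 1 as the only control it was 6.32. In Ifi209, 33.4% of the 50-base windows also occur in Ifi214. Ifi205, whose protein is a nuclear PYHIN factor, had a single count without LPS, in control replicate 2, and 16, 21 and 20 counts with LPS. The ratio of summed counts, scaled for library size, was 62.6 with an exact 95% counting interval from 10.8 to 2515. The fitted log2 fold change of 5.50 (SE 0.73, edgeR adjusted p = 3.2e-05) depends on the prior count, and was 3.24 with a prior count of 2 and 7.31 without control replicate 2. Both genes stood near or under the worth of 3 counts in every control library and above it in every LPS library. Counting intervals cover counting error only, since the reads carry no molecular identifiers.

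Ifi213 had 0 counts in all 6 libraries, which allows up to 3 counts, or 0.161 to 0.19 CPM, in each. It was not tested. In its transcripts 84.4% of the 50-base windows are unique, and 13.6% also occur in Ifi208.

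**Figure D2:**
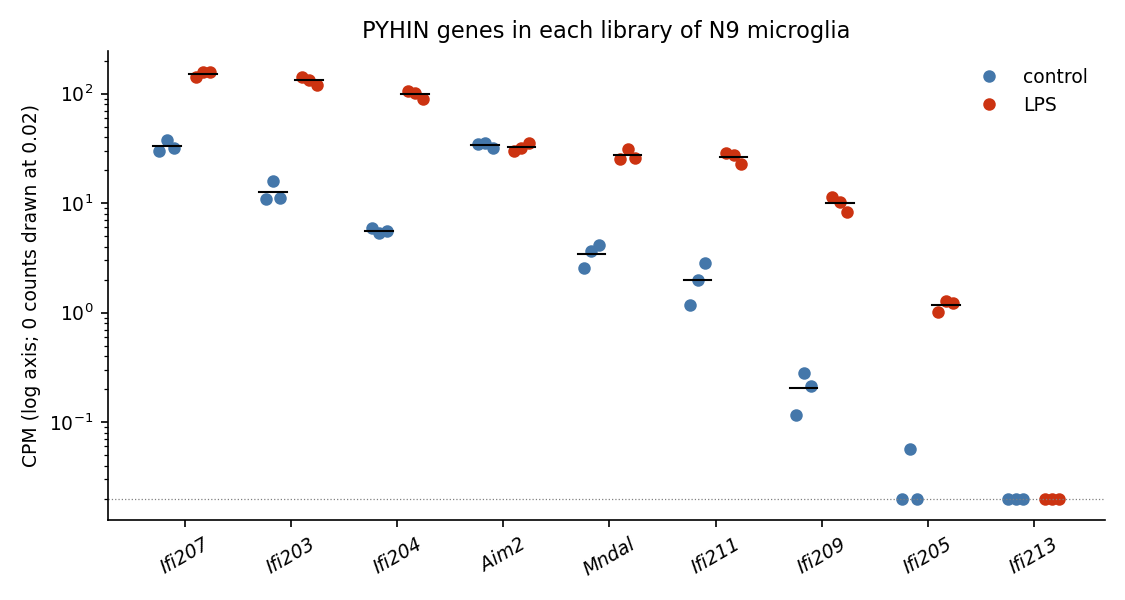
Level of each member in each library in CPM on a log axis, with control libraries in blue, LPS libraries in red, bars at the group means and 0 counts drawn at 0.02. The 7 members that rose show no overlap between groups, Aim2 overlaps and Ifi213 is at 0 in all 6 libraries.

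Levels of different genes were compared as CPM per kb of the deposited gene length. In control libraries Aim2 (9.67 ± 0.461 CPM per kb) and Ifi207 (9.64 ± 1.25 CPM per kb) stood highest and overlapped each other (SD, n = 3). Ifi203, Ifi204, Ifi211 and Mndal followed between 1.88 and 0.95 CPM per kb, each overlapping the next in order. Ifi209 and Ifi205 were lower still, at 0.0578 and 0.00452 CPM per kb. In LPS libraries the order was Ifi207 at 44.4 ± 2.23, Ifi204 at 27.8 ± 2.43, Ifi203 at 19.7 ± 1.71 and Ifi211 at 14.7 ± 1.72 CPM per kb (SD, n = 3). Aim2 came after these at 9.26 ± 0.771 CPM per kb, then Mndal at 7.55 ± 0.835, Ifi209 at 2.8 ± 0.436 and Ifi205 at 0.28 ± 0.0334 CPM per kb (SD, n = 3). No neighbours in this order overlapped in their library values. The length used counts every base, yet unique 50-base windows made up 27.2% of those of Ifi211 and 99.3% of those of Aim2. How reads that match several genes were counted is not given. The order between genes is therefore uncertain, and overlap of libraries does not measure this. By these values, Aim2 shared the first place without LPS and came after Ifi207, Ifi204, Ifi203 and Ifi211 with it. Its own level did not pass the test for change.

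The make-up of the family's counts shifted accordingly. Aim2 gave 40.6, 35.1 and 36.7% of the members' counts in control and 6.14, 6.5 and 7.7% in LPS libraries. Ifi204 went the other way, with 6.98, 5.32 and 6.4% in control and 21.7, 20.6 and 19.4% in LPS libraries. Ifi203 had a mean share of 13.8 ± 1.83% in control and 27.5 ± 1.65% in LPS libraries (SD, n = 3). Ifi207 kept a large share, 36.3 ± 1.33% in control and 31.7 ± 2.33% in LPS libraries (SD, n = 3), though its groups did not overlap. The ratio of Ifi204 to Ifi207 counts was 0.199, 0.141 and 0.177 in control and 0.74, 0.647 and 0.573 in LPS libraries. A share falls when other members rise, so the shares describe the mix and not the level of a gene, and they were not tested.

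**Figure D3:**
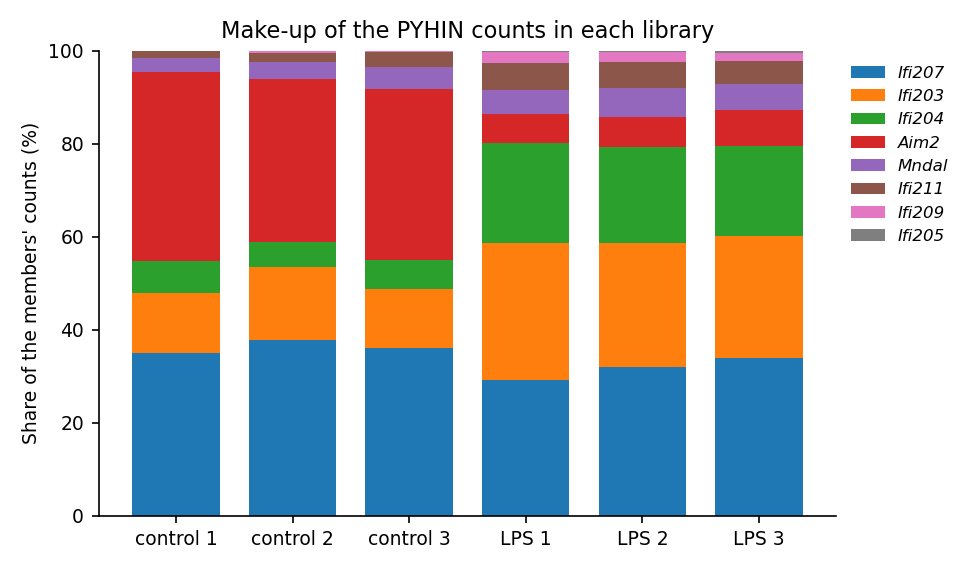
Share of the members' counts in each library, in percent, stacked by gene from 0 to 100. The share of Aim2 is 35.1 to 40.6% in the control libraries and 6.14 to 7.7% in the LPS libraries, and Ifi213 has no share.

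The 5 further PYHIN genes of the locus are Ifi202b, Ifi203-ps, Ifi206, Ifi208 and Ifi214. Ifi202b, whose protein has HIN domains without a pyrin domain and is known to oppose AIM2, had 261, 235 and 243 counts in control and 3091, 2972 and 2719 counts in LPS libraries. It rose without overlap, with a log2 fold change of 3.71 (SE 0.08, edgeR adjusted p = 2.1e-14). Per length, with reads as counted, it was the most abundant PYHIN gene in LPS libraries, at 107 CPM per kb against 8.18 CPM per kb in control libraries. Its start site window held no interferon element and 1 gamma-activated site, and all of its 50-base windows are unique. The pseudogene Ifi203-ps had 12, 17 and 6 counts in control and 147, 160 and 149 counts in LPS libraries, and rose by a log2 fold change of 3.82 (SE 0.25, edgeR adjusted p = 1.4e-08). In Ifi203-ps, 24.3% of the 50-base windows also occur in Ifi203. Ifi206, Ifi208 and Ifi214 did not pass the filter. Ifi208 had 1 count in the control group and 7, 7 and 6 counts in the LPS libraries, a scaled count ratio of 22 with an exact 95% counting interval from 3.51 to 910. Ifi214 had 1 count in the control group and 26, 10 and 7 counts in the LPS libraries, a ratio of 47.2 with an interval from 8.03 to 1908. Ifi206 had 1 count in each LPS library and none in the control libraries. Over all 14 PYHIN genes the sum was 105 ± 8.08 CPM in control and 671 ± 32.7 CPM in LPS libraries (SD, n = 3), a ratio of 6.38. The sum is not changed by which gene of the family a counted read was given to, but would be by reads left uncounted or counted more than once.

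Within 500000 bases of the members the table lists 61 genes, of which 41 had no count in any library and 11 were tested. These 11 were the 8 tested members, Ifi202b, Ifi203-ps and the predicted gene Gm18445. Gm18445, which passed the filter only through the LPS libraries, had 2, 1 and 0 counts in control and 29, 32 and 26 counts in LPS libraries, a scaled count ratio of 31.8 with an exact 95% counting interval from 10.5 to 157. Its fitted log2 fold change was 4.82 (SE 0.57, edgeR adjusted p = 9.2e-06), and 5.67 without control replicate 1. Of the 11 tested genes of the locus, Aim2 was the only one that did not pass the test, and Ifi205, Ifi209 and Gm18445 are the 3 that the filter kept only for their LPS counts. Over all tested genes, 2.40% rose past both thresholds.

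**Figure D4:**
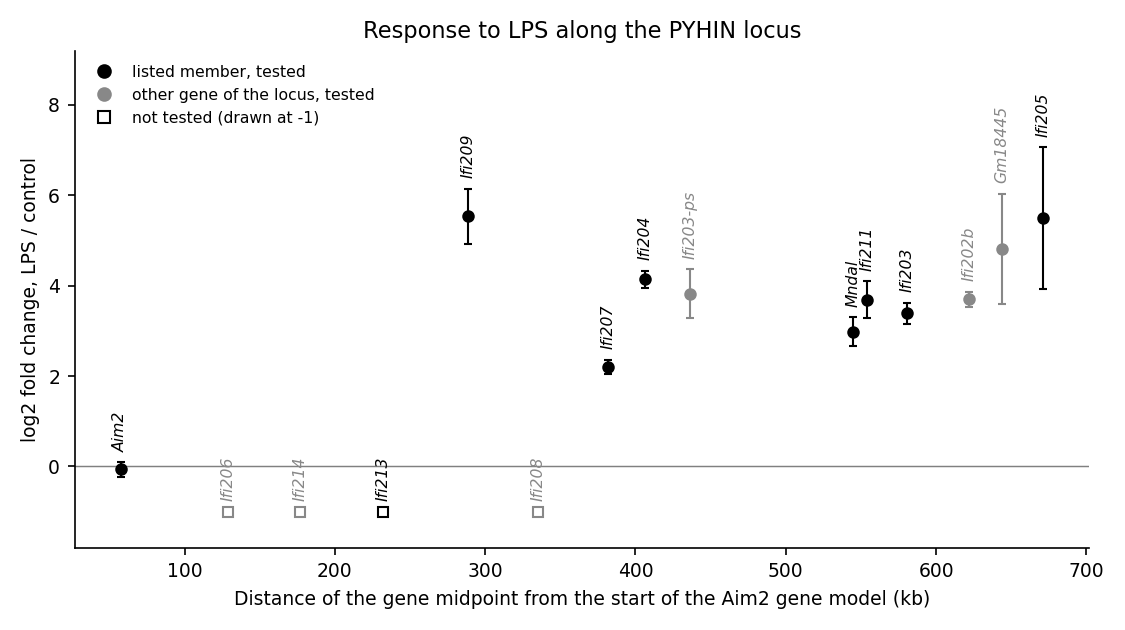
Log2 fold change of LPS against control, with 95% intervals from edgeR, against the distance in kb of each gene's midpoint from the start of Aim2. Members are black, other genes of the locus grey and untested genes open squares below 0, and Aim2 at the left end lies on 0 while the other tested genes lie above 2.

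The inflammasome genes ranged in log2 fold change from -0.19 for Pycard to 5.88 for Il1b. Of 13 listed genes 11 were tested, 8 rose and none fell at an adjusted p under 0.05, against 18.7% and 15.7% of all tested genes. Of the 8, 4 also had a log2 fold change over 1.5, as had 2.40% of all tested genes, and the list's median log2 fold change was 0.67. Pycard, which encodes the adaptor ASC, had a log2 fold change of -0.19 (SE 0.13, edgeR adjusted p = 0.297). Casp1, the protease that AIM2 and other sensors engage, rose by 0.67 (SE 0.05, edgeR adjusted p = 8.8e-08). Casp4, the mouse caspase-11 that binds LPS in the cytosol, rose by 2.11 (SE 0.07, edgeR adjusted p = 5.2e-12). The pore protein gene Gsdmd rose by only 0.20 and the membrane rupture gene Ninj1 by 0.85, on the log2 scale. The cytokine substrate Il1b had 3, 5 and 0 counts in control and 155, 172 and 122 counts in LPS libraries, a log2 fold change of 5.88 (SE 0.38, edgeR adjusted p = 1.2e-08). Il1b passed the filter only through the LPS libraries, and its log2 fold change was 6.65 without control replicate 2 and 5.28 without control replicate 3. Il18 rose by 1.84 (SE 0.36, edgeR adjusted p = 0.00103) from 11, 6 and 15 to 38, 27 and 40 counts.

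Among the sensors that can replace AIM2 at the head of this complex, Nlrp3 rose from 30.3 ± 2.68 to 87.7 ± 3.2 CPM (SD, n = 3). Its log2 fold change of 1.53 (SE 0.07, edgeR adjusted p = 1.1e-10) is just past the threshold and was 1.46 without control replicate 1. Nlrc4 and Nlrp1b had log2 fold changes of 0.27 and -0.04, with edgeR adjusted p of 0.104 and 0.852. Casp8 rose by 0.42 on the log2 scale. Nlrp1a had 7, 16 and 19 counts in control and 0, 3 and 4 counts in LPS libraries, lower without overlap in CPM. The paper lists Nlrp1a among its most down-regulated genes. Neither Nlrp1a nor Mefv, with at most 6 counts in a library, was tested, so the statement that none fell does not cover them.

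Of 10 listed genes of cytosolic DNA sensing, 8 were tested, 4 rose and 1 fell at an adjusted p under 0.05, beside the 18.7% and 15.7% of all tested genes, so that the single fall is near the background. The median log2 fold change was 0.24. The kinase gene Ikbke rose most, by 1.81 (SE 0.06, edgeR adjusted p = 5.4e-12), and was the only one over 1.5, a size that 2.40% of all tested genes passed upward. The nucleotide hydrolase Samhd1 rose by 0.98, the DNA sensor cGAS, listed as Mb21d1, by 0.50, and the kinase Tbk1 by 0.46, on the log2 scale. The lysosomal nuclease Dnase2a fell by 0.25 on the log2 scale, with an edgeR adjusted p of 0.002. The adaptor STING, listed as Tmem173, had a log2 fold change of -0.11 (adjusted p = 0.148), Irf3 of -0.04 (adjusted p = 0.744) and Ddx41 of 0.03 (adjusted p = 0.698), all by edgeR. Trex1 had no count and Zbp1 at most 2 counts in any library, and neither was tested.

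Of 10 listed genes of type I interferon signalling, 9 were tested, 7 rose and none fell at an adjusted p under 0.05, where 18.7% of all tested genes rose and 15.7% fell. The median log2 fold change of the list was 1.30. Stat2 and Irf9, whose proteins take part in binding the interferon-stimulated response element, rose with log2 fold changes of 2.24 (SE 0.09) and 2.08 (SE 0.07). Irf7, a factor that amplifies interferon transcription, was 9.19 ± 0.947 CPM in control and 143 ± 7.78 CPM in LPS libraries (SD, n = 3). The rise, 3.97 as a log2 fold change (SE 0.07), passed with an edgeR adjusted p of 6.4e-15. Irf1 rose by 1.30, Tyk2 by 0.92 and Jak1 by 0.22 on the log2 scale. The receptor chains Ifnar1 and Ifnar2 had log2 fold changes of 0.15 and 0.09, with edgeR adjusted p of 0.0704 and 0.385. Ifnb1 itself had no count in control and 1, 1 and 0 counts in LPS libraries, within the 3 counts that a count of 0 allows, so no difference was detectable at this depth.

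**Figure D5:**
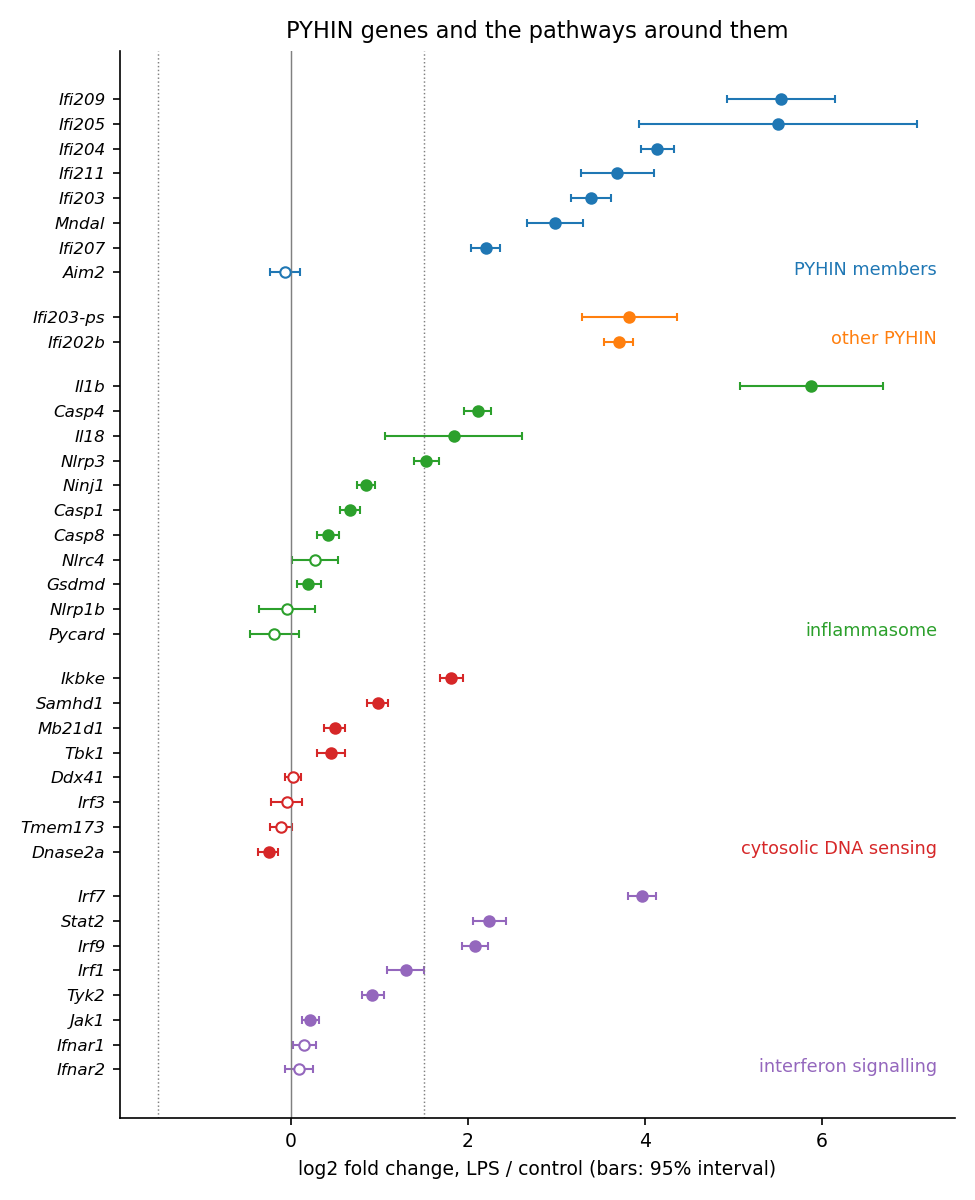
Log2 fold change of LPS against control with 95% intervals from edgeR for the tested PYHIN members, other PYHIN genes and genes of the inflammasome, cytosolic DNA sensing and interferon signalling lists, of which 1 tested gene is not drawn. Filled points passed an adjusted p of 0.05, dotted lines mark 1.5 in either direction, and the members other than Aim2 lie between 2.20 and 5.54.

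The tested genes whose log2 CPM followed the mean standardized level of the 8 tested members most closely over the 6 libraries were Ankrd28 (Pearson r = 0.9998), mt-Rnr1 (0.9990), Csf2rb2 (0.9989), Rel (0.9988) and Carmil1 (0.9986). Rel encodes a subunit of NF-kappaB, and mt-Rnr1 is a ribosomal RNA of mitochondria. The 6 libraries form 2 groups, so any gene that differs between the groups scores high, and the coefficients are a description. Aim2, which did not pass the test, weighs in that mean as much as each other member. All 5 genes rose from LPS replicate 1 to 3, as did Aim2 (30, 32 and 35.3 CPM). Over the same libraries Ifi203 (143, 132 and 120 CPM), Ifi204, Ifi209 and Ifi211 fell, and Ifi205, Ifi207 and Mndal were highest in LPS replicate 2. The log2 fold changes of these 5 genes, from 0.42 for Ankrd28 to 1.26 for Carmil1, were smaller than those of every member called.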

How the data were processed

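RNA-seq of 6 libraries of N9 microglia was sequenced and processed by Novogene, and groups and replicate numbers were taken from the labels. The authors deposited whole-number read counts per gene without normalization, made with featureCounts 1.5.0-p3 on mm10 per the submitters' processing notes. The aligner, the annotation release and the use of strand and of reads that match several genes are not given in the sources used here, nor is the mouse strain of the line. The authors' comparison table, which holds fold changes, p-values and normalized values made with DESeq2, was not used.

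The deposited counts were tested with edgeR 4.0.16 under R 4.3.3 (quasi-likelihood test, TMM, filterByExpr by group, prior count of 0.125, no replicate block), with Benjamini-Hochberg adjustment over 12296 genes. A standard error is the size of the log2 fold change divided by the square root of F. Libraries were checked for duplicates, and all pairs of a group differed by more than sampling noise. The fit was tested on simulated counts. Alternatives used DESeq2 1.42.0, RLE size factors, total counts without a scaling factor (added after the TMM factors were seen), robust dispersion, glmTreat, other filters, a replicate block, a prior count of 2, each library left out, and control replicates 2 and 3 left out together (added after the marker levels were seen).

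Of the table's genes, 54409 are in GENCODE M21 (GRCm38), 53499 of them with the same coordinates. Windows of 50 bases of its transcripts were compared on both strands. RefSeq windows of 300 bases were matched by symbol for 12 of the 14 PYHIN genes. The named genes are the members, the other PYHIN genes, and the lists of inflammasome, DNA sensing and interferon genes. Also named are every tested gene within 500000 bases and the 5 genes closest to the members' mean standardized level. The members and lists were chosen with earlier results of these data known. Figures used matplotlib 3.10.9. Results of some listed genes are not reported here, although the counts and sums over their lists include them.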

Additional observations from a re-analysis of the deposited data

How the results depend on the processing

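All 7 members called were called under every alternative in which they were tested, with the same direction. With a mean of at least 10 counts required, Ifi205 was not tested and 6 were called. The log2 ratio of the summed members, 2.40, lay between 2.35 and 2.51 over its alternatives. With control replicate 1 as the only control, an alternative chosen after the marker levels were seen, 334 genes were called, 7 of them members. The log2 fold change of Aim2 lay between -0.16, with total counts unscaled, and -0.01, with adjusted p from 0.12 to 1.0. That scaling moved the median of all tested genes to -0.09. Over all genes 326 were called, against 183 with glmTreat, which tests against the threshold itself, where 181 rose and 2 fell. With no filter on low counts 91 fell in place of 31. With each library left out in turn 353 to 377 were called, 301 to 322 higher and 38 to 62 lower, where the last count was 49 when control replicate 1 was dropped, 62 for LPS replicate 1, and 52 for each of LPS replicates 2 and 3. The cause was not tested. Library depth limits Ifi205, Ifi209 and Ifi213, whose control counts are 5 or fewer in every library.

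With the replicate number as a block 329 genes were called, among them 7 members. Deviations of samples with the same number correlated at 0.136, 0.0588 and -0.00415. LPS replicates 1 and 2 each correlated best with the control of their own number. LPS replicate 3 correlated best with control replicate 2 (0.0912) rather than with its own number. With 3 libraries per group these values cannot decide whether the numbers pair the samples.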
